A study of Ovis aries with 36 samples.

Results

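A pair of loci, 2 of the 31136 assembled loci in the count tables, was followed across 9 lamb muscles. The first, XLOC_014434 (Ensembl gene ENSOARG00000005378), covers chromosome 2 from 239846246 to 239852355 of the Oar_v3.1 assembly, a span of 6110 bases within which lies the position tabulated for PDLIM1 by the study. The second, XLOC_016824 (Ensembl gene ENSOARG00000005814), covers chromosome 22 from 15995348 to 16019759, a span of 24412 bases. It was selected on its measured difference in counts between Semitendinosus (ST) and Supraspinatus (SS), and the chromosome 2 locus was chosen by its position among the genes listed for those same muscles. Values for ST and SS are therefore given as a description with no test, and tests of either locus between muscles compared only the other 7. The fitted model and a test between lambs used all 36 samples. Both loci passed the filter on low counts, as did 12461 loci in all. Neither shares its coordinates with another locus.

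The samples came from 4 unrelated Poll Dorset cross-bred lambs, 14 months old and without any experimental treatment, each of which gave all 9 muscles, so that every muscle had 4 biological replicates and the series 36 samples. Besides ST and SS the muscles were Adductor (AD), Gluteobiceps (GB), Longissimus lumborum (LL), Psoas major (PM), Gluteus medius (GM), Semimembranosus (SM) and Rectus femoris (RF), sampled in the superficial middle of the belly just after slaughter. RNA-Seq counts per sample totalled 3699148 to 6427422 (median 5905902), of which 65.7% to 78.3% fell on 4 loci. Expression is given in CPM, which is the count scaled to the library size after TMM normalization. Muscle values are means ± SD of the 4 lambs, and 3 counts correspond to 0.366 to 1.03 CPM depending on the sample. In whole muscle, fewer cells of a type and less RNA per cell cannot be told apart.

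PDLIM1 encodes a PDZ and LIM domain protein of the cytoskeleton that binds alpha-actinin. Alpha-actinins cross-link actin filaments in stress fibers and at the Z-disc, the boundary between sarcomeres. Slow and fast muscle fibers use different isoforms of troponin, myosin and tropomyosin, so muscles that differ in fiber type differ in the expression of those genes. The files pair no Ensembl gene with a symbol. The RefSeq annotation of another assembly, ARS-UI_Ramb_v3.0, lists the symbol PDLIM1 once, on chromosome 22. That table holds no Ensembl identifiers and coordinates were not converted between assemblies, so whether ENSOARG00000005814 is that gene was not tested, and both loci are named here by their chromosomes.

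The chromosome 2 locus had low expression that was similar in size across the muscles. Its counts ranged from 3 to 26 per sample with a median of 13, and its mean of 2.35 CPM was above that of 36% of the loci tested. In ST the lambs had 1.07, 4.37, 1.49 and 3.23 CPM, from 4, 20, 9 and 15 counts. In SS they had 2.76, 3.06, 2.31 and 2.90 CPM, from 12, 21, 13 and 15 counts. The 4 values of SS lay within the range of those of ST, and the direction differed among lambs, with SS:ST ratios of 2.58, 0.699, 1.55 and 0.897 in lambs 1 to 4. The fitted log2FC of ST minus SS was -0.13. For PDLIM1 the study tabulated higher expression in SS than in ST, with an absolute log2FC above 1. The fitted value of the chromosome 2 locus was smaller in size than that. The chromosome 22 locus, described below, had -1.78, close to the value tabulated for PDLIM1. It was chosen on this difference, so that closeness does not test whether it is PDLIM1. For the chromosome 2 locus, 61 counts in SS and 48 in ST, summed over lambs, gave a ratio of 1.10 after normalization. The exact 95% interval of 0.739 to 1.64 covers counting error only.

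Muscle means of the chromosome 2 locus ran from 2.07 ± 0.281 CPM in PM to 2.76 ± 0.322 CPM in SS. Between them, from the low end, were GM (2.11 ± 1.16 CPM), AD (2.16 ± 0.645 CPM), RF (2.2 ± 0.362 CPM), LL (2.30 ± 0.505 CPM), SM (2.47 ± 1.14 CPM), ST (2.54 ± 1.54 CPM) and GB (2.57 ± 0.643 CPM). The ranges of the lambs overlapped in each of the 36 pairs of muscles when lambs were not matched. Matched by lamb, SS was higher than RF and than PM in 4 of 4 lambs, with mean differences in log2 CPM of -0.29 for RF minus SS (SE 0.047) and 0.36 for SS minus PM (SE 0.125), given with no test since SS had a part in the choice of the locus. No other of the 36 pairs had the same direction in every lamb. The highest muscle was SS in lamb 1, ST in lambs 2 and 4 and SM in lamb 3, and the lowest was SM, AD, ST and GM, respectively. No muscle was high or low in every lamb.

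The chromosome 22 locus had higher counts and a wide range among muscles. Its counts ranged from 19 to 166 per sample with a median of 85, and its mean of 15.9 CPM was above that of 85.8% of the loci tested. In ST the lambs had 10.9, 6.78, 9.78 and 4.10 CPM, from 41, 31, 59 and 19 counts. In SS they had 29.2, 24.2, 29.0 and 25.0 CPM, from 127, 166, 163 and 129 counts. The lowest SS sample was above the highest sample of each other muscle, the nearest being a PM sample of lamb 2 with 22.9 CPM. Within lambs 1 to 4, SS exceeded ST 2.67, 3.57, 2.96 and 6.09 times. The fitted log2FC of ST minus SS was -1.78 (SE of the 4 within-lamb differences 0.249), and the ratio of SS to ST from 585 and 150 summed counts was 3.36 (exact 95% counting interval 2.81 to 4.05). ST against SS had 2.29% of all loci past the thresholds used below for pairs.

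In LL the chromosome 22 locus was as low as in ST. The lambs had 8.08, 10.2, 8.41 and 5.74 CPM in LL, a mean of 8.11 ± 1.83 CPM against 7.90 ± 3.08 CPM in ST, and ST was the lower muscle in 2 of 4 lambs. RF (14.5 ± 1.96 CPM), SM (15.0 ± 4.06 CPM) and AD (15.5 ± 1.87 CPM) lay close together. GM (17.6 ± 2.08 CPM), GB (18.1 ± 4.11 CPM) and PM (19.7 ± 2.65 CPM) followed, and SS stood highest with 26.8 ± 2.62 CPM. In this order the lambs of neighboring muscles overlapped except between LL and RF and between PM and SS. SS was the highest muscle in 4 of 4 lambs. The lowest was LL in lambs 1 and 3 and ST in lambs 2 and 4, with the other of these muscles next above it.

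**Figure D1:**
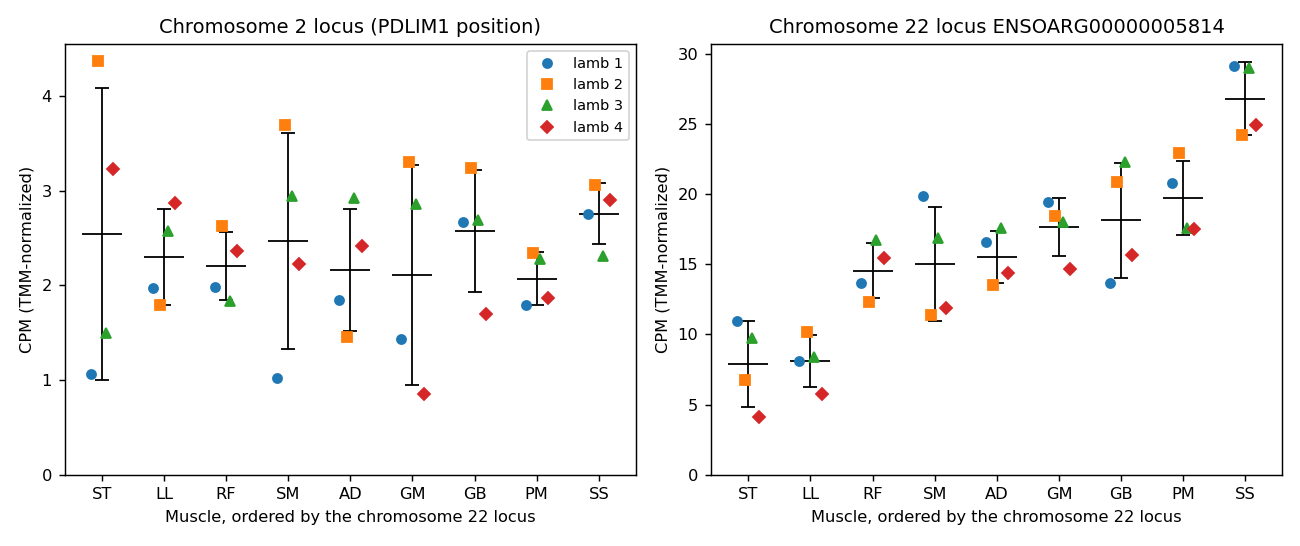
Expression in CPM (vertical axes from 0, with different scales) of the chromosome 2 locus (left) and the chromosome 22 locus (right) in 9 muscles, with a symbol per lamb and black marks and bars for mean ± SD of the 4 lambs. On the left the lambs of all muscles overlap, whereas on the right ST and LL lie below the other muscles and SS, from 24.2 to 29.2 CPM, above them.

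Both loci were then compared among the 7 muscles that had no part in their choice, SM, GB, GM, RF, LL, AD and PM. Jointly, these muscles differed in the chromosome 22 locus (F = 9.72, FDR = 0.00026, edgeR quasi-likelihood test with Benjamini-Hochberg adjustment over all loci), which ranked 104 of 12461 by p in a test that called 3.6% of all loci at an FDR of at most 0.01. The chromosome 2 locus did not pass (F = 0.291, FDR = 0.96, the same edgeR test). The call for chromosome 22 rested on LL. Without LL, an alternative chosen after its values were seen, the 6 remaining muscles gave an FDR of 0.25 in edgeR, in a test that called 2.65% of loci. With either lamb 3 or lamb 4 left out the FDR of the 7 muscles was 0.013. From these same samples the study had also tabulated PDLIM1 as lower in LL than in SS. The fitted log2FC of SS minus LL was 1.73 for the chromosome 22 locus and 0.23 for the chromosome 2 locus, given with no test. If the chromosome 22 locus is PDLIM1, which was not tested, its low level in LL was thus already known from these data.

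The lambs in LL were below every sample of the other 6 muscles tested, the nearest of which was an SM sample with 11.4 CPM. Such a separation, with LL lowest, occurred in 0.0482% of the loci tested, and with LL highest in 0.0562%. LL was picked for this count after its values were seen, and separations of other muscles were not counted. Among the 21 pairs of the 7 muscles, the chromosome 22 locus passed an FDR of at most 0.01 with an absolute log2FC above 1 in 3 pairs, all with LL, whereas 3.8% of all loci were called in at least 1 of the 21 pairs and 120 loci in 3 or more. It was 2.46-fold higher in PM than in LL (log2FC of LL minus PM -1.30, within-lamb SE 0.113, edgeR FDR = 2.78e-05), with 0.465% of loci called in that pair. GB exceeded LL 2.25-fold (log2FC 1.17, SE 0.158, edgeR FDR = 0.00028, 0.482% of loci called). GM exceeded LL 2.18-fold (log2FC 1.12, SE 0.104, edgeR FDR = 0.00159, 0.0642% of loci called). The direction was the same in 4 of 4 lambs in each of these pairs. The call of GM against LL was lost with an FDR of 0.055 in a fit to the samples of those muscles alone and of 0.011, 0.067 and 0.03 without lamb 1, 3 or 4, and that of GB against LL with an FDR of 0.018 without lamb 3.

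The remaining pairs with LL pointed the same way with smaller differences. SM was 1.81-fold higher than LL (log2FC 0.85, SE 0.241, edgeR FDR = 0.00703) and RF 1.81-fold higher (log2FC 0.85, SE 0.233, edgeR FDR = 0.00785), both in 4 of 4 lambs and both under the fold threshold, in pairs that called 1.01% and 0.778% of loci. These FDR values depended on the lambs and the fit. Without lamb 2 the log2FC rose to 1.10 and 1.04 and both pairs were called, whereas without lambs 1, 3 and 4 the edgeR FDR was 0.069, 0.065 and 0.051 for SM and 0.031, 0.12 and 0.19 for RF. In a fit to the samples of each pair alone it was 0.11 and 0.095. For LL minus AD the log2FC was -0.94 (SE 0.186, edgeR FDR = 0.0185), again lower in LL in 4 of 4 lambs, in a pair that called 0.0241% of loci. Among the pairs without LL, PM had the highest values. PM exceeded SM with a log2FC of SM minus PM of -0.45 (SE 0.222, edgeR FDR = 0.169) and RF with one of -0.45 (SE 0.188, edgeR FDR = 0.234). These differences did not pass although PM was higher in 4 of 4 lambs in both. Such agreement of all lambs occurred in 11 of the 21 pairs. It included PM above AD, GB above RF and GM above AD, which did not pass either (edgeR FDR = 0.649, 0.481 and 0.766).

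The chromosome 2 locus passed in 0 of the 21 pairs, with FDR values from 0.697 to 0.998 in edgeR, and 0 of the 21 had an unadjusted p under 0.05. Its largest absolute log2FC among them was 0.31, between GB and PM, where GB was higher in 3 of 4 lambs. From 64 and 47 summed counts the GB:PM ratio was 1.23, with an exact 95% counting interval of 0.834 to 1.84. At 13 counts in the median sample, counting alone gives a coefficient of variation of 27.7%, against 10.8% for the chromosome 22 locus.

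**Figure D2:**
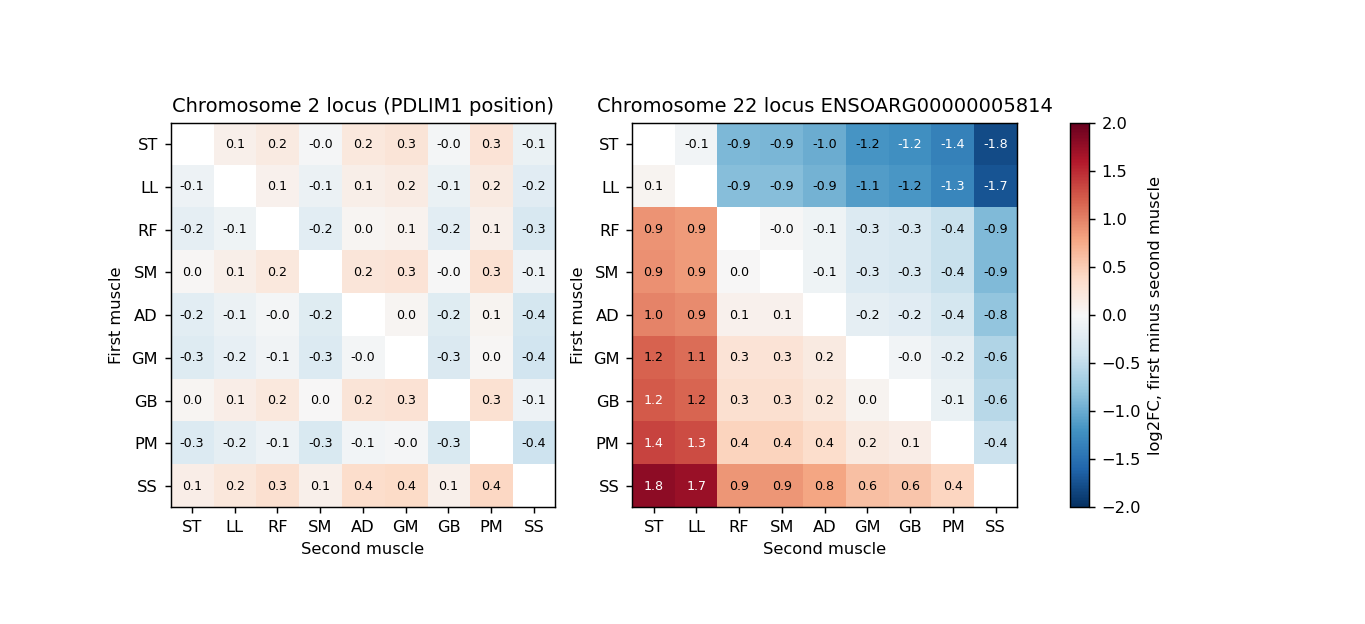
Fitted log2FC of the muscle in each line minus the muscle in each column for the chromosome 2 locus (left) and the chromosome 22 locus (right), with muscles ordered by the chromosome 22 locus and colors from -2 to 2. On the left no value exceeds 0.41 in size, and on the right the values of ST and LL against the other muscles stand out, down to -1.78 for ST minus SS.

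The division of variance followed the same lines. Differences between muscles held 80.2% of the variance of log2 CPM of the chromosome 22 locus over the 36 samples and differences between lambs 6.6%. At the median locus these shares were 28.7% and 15.4%, and 99.8% of loci had a smaller muscle share than the chromosome 22 locus, a share to which ST and SS contributed. In the chromosome 2 locus muscles held 8.7% and lambs 21.3%, and only 2.16% of loci had a smaller muscle share. The shares are not adjusted for the number of groups. Noise alone therefore gives a share above 0 to both, and a larger one to the 9 muscles than to the 4 lambs. Lamb 1 had the lowest mean of the chromosome 2 locus (1.84 CPM) and lamb 2 the highest (2.88 CPM). Differences between lambs did not pass for either locus (edgeR FDR = 0.2 on chromosome 2 and 0.069 on chromosome 22), in a test added after the values were seen that called 17% of all loci. This test used all 36 samples, ST and SS included.

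No clear common variation of the loci was seen, although the few counts of the chromosome 2 locus limit any correlation with it. After removal of lamb means, the correlation of their log2 CPM over the 36 samples was -0.093 (Spearman's rho -0.053), and over the 9 muscle means r was 0.236. All points share libraries and ST and SS, so these values are a description. By the likeness of their profiles the chromosome 22 locus ranked 8291 of 12460 loci for the chromosome 2 locus. The per-sample difference in log2 CPM, chromosome 22 minus chromosome 2, averaged 1.66 ± 0.579 in LL and 1.59 ± 1.34 in ST, against 3.05 ± 0.222 in PM and 3.13 ± 0.279 in SS. Among the 7 muscles this difference varied with muscle at p = 0.043 (F = 2.8, permutation test with 100000 permutations of muscles within lambs). This was close to 0.05, and the same permutation test gave p = 0.36 without lamb 4, 0.16 without lamb 3, 0.052 without lamb 1 and 0.062 with a prior count of 0.5 in place of 2.

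The loci most like the chromosome 22 locus in profile included genes of slow muscle fibers. Of all loci with an Ensembl gene, the 5 with the highest correlation over the 36 samples, after removal of lamb means, began with ENSOARG00000017646 on chromosome 17 (r = 0.868). ENSOARG00000019316 on chromosome 7 (r = 0.866) and ENSOARG00000017779 (r = 0.863), which shares the coordinates of the first, came next. The other 2 were TNNC1 (r = 0.838), the troponin C of slow and cardiac muscle, and TNNT1 (r = 0.827), the slow skeletal troponin T. The positions tabulated for MYL2 and CCDC63 both fall within the span on chromosome 17 from 54257918 to 54303146 that holds ENSOARG00000017646 and ENSOARG00000017779, so neither name was assigned to either locus. ENSOARG00000019316 rose from 221 ± 74.1 CPM in ST and 584 CPM in LL to 2250 CPM in PM and 2560 ± 595 CPM in SS. In all, 43 of 12460 loci had a correlation above 0.7 with the chromosome 22 locus and 0 with the chromosome 2 locus over the 36 samples, and 23 and 5 did over the 28 samples without ST and SS.

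ST and SS weigh heavily in these correlations. Over the 28 samples of the other 7 muscles, a choice added after the values were seen, 3 of the 5 loci were again among the 5 most alike, and the r values of all 5 lay between 0.772 for TNNT1 and 0.840 for ENSOARG00000017779. For the chromosome 2 locus the highest correlation was 0.642, with ENSOARG00000015613 on chromosome 3, followed by ENSOARG00000002384 on chromosome X (0.641), ENSOARG00000002097 on chromosome 4 (0.614), ENSOARG00000020572 on chromosome 1 (0.589) and ENSOARG00000006758 on chromosome 18 (0.554). Only 1 of these 5, ENSOARG00000002097, was among the 5 most alike over the 28 samples.

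Of 10 slow-fiber genes listed, 7 could be paired with a single locus. All 7 were higher in SS than in ST at an FDR of at most 0.01 with an absolute log2FC above 1, and 0 were higher in ST, whereas 1.52% of all loci passed in the direction of SS and 0.77% in that of ST. Their median log2FC of ST minus SS was -3.24, against -0.01 over all loci. The study chose these genes on the same samples, so that their direction is not independent evidence. Among the 7 muscles tested here, 6 of the 7 genes passed the joint test, which called 3.6% of all loci. All 7 were higher in PM than in LL, and 6 were called in that pair, beside 0.465% of all loci. Their median log2FC of LL minus PM was -1.95, against 0.01 over all loci.

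MYL3, the slow ventricular myosin light chain, had 2.85 ± 2.01 CPM in ST, 23.8 ± 7.06 CPM in LL, 185 ± 20 CPM in PM and 57.5 ± 29.8 CPM in SS. TPM3, a slow tropomyosin, had 14.9 ± 4.86 CPM in ST, 41.5 ± 11.2 CPM in LL, 218 ± 47.1 CPM in PM and 140 ± 44.6 CPM in SS. ATP2A2, the calcium pump of the slow-fiber sarcoplasmic reticulum, had 56.0 ± 10.4 CPM in ST, 121 ± 56.9 CPM in LL, 423 ± 86.0 CPM in PM and 406 ± 65.3 CPM in SS. These genes, like the chromosome 22 locus, were lowest in ST, next in LL of the muscles given here, and high in PM and SS. They differed from it in ST, which lay below LL for each of them, whereas the chromosome 22 locus had nearly the same mean in both. They also differed in PM, whose mean was above that of SS for each of them, for ATP2A2 within the SD. The chromosome 22 locus was higher in SS than in PM.

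TNNT1 had 23.2 ± 6.96 CPM in ST, 74.1 ± 37.8 CPM in LL, 256 ± 20.9 CPM in PM and 225 ± 54.7 CPM in SS, and TNNC1 had 28.6 ± 7.75, 79.6 ± 47.0, 330 ± 84.1 and 273 ± 67.1 CPM. TNNI1, the slow skeletal troponin I, had 5.62 ± 3.48, 16.7 ± 11.9, 64.5 ± 9.04 and 60.1 ± 18.6 CPM in the same order. From LL to PM these 3 troponin genes rose with a log2FC of LL minus PM of -1.77, -2.05 and -1.95 (edgeR FDR = 0.00046, 7.2e-05 and 0.00071), beside -1.30 for the chromosome 22 locus. CASQ2, a calsequestrin of slow and cardiac muscle, named after its values were seen, was the paired gene that did not pass between LL and PM, with 5.54 ± 1.08 and 7.12 ± 1.88 CPM (edgeR FDR = 0.73).

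**Figure D3:**
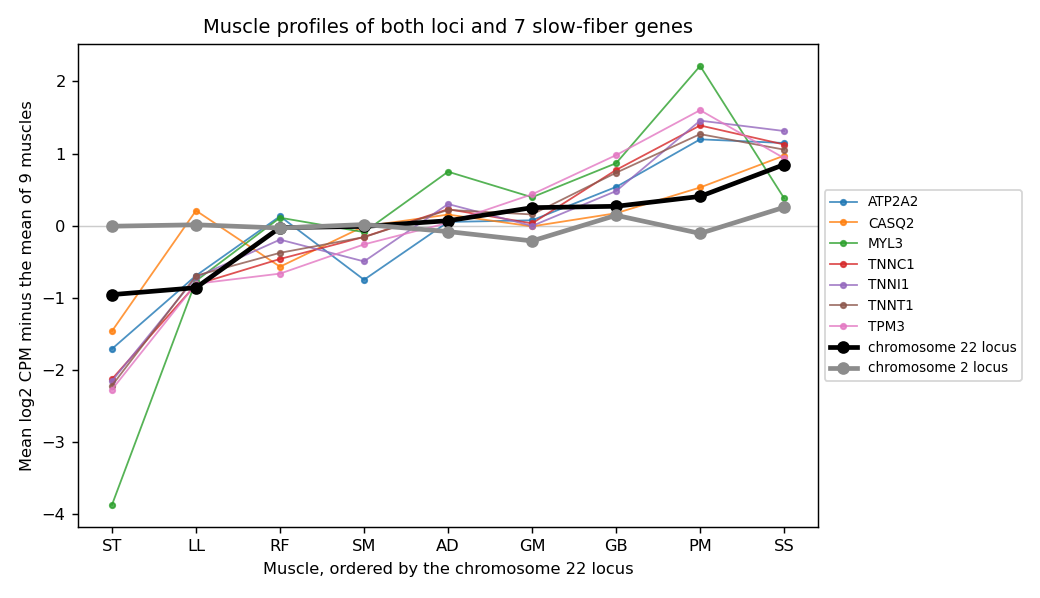
Mean log2 CPM of 4 lambs in each muscle minus the mean of the 9 muscles, for the chromosome 22 locus (black), the chromosome 2 locus (gray) and 7 slow-fiber genes (thin colored lines). The black line climbs from ST and LL to PM and SS, over a narrower range than most slow-fiber genes. Those genes other than CASQ2, whose LL value is 0.21 above its mean, are below their means in ST and LL. They are highest in PM and lower in SS, as in MYL3 (2.215 in PM and 0.381 in SS). The gray line stays near 0, and ST is lower than LL in the 7 slow-fiber genes but not clearly so in the black line.

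The median correlation of the 7 slow-fiber genes with the chromosome 22 locus was 0.816 over the 36 samples and 0.747 over the 28 samples without ST and SS. With the chromosome 2 locus it was 0.026 and -0.088. These values were not tested. Of 22 Z-disc genes, 1 could be paired, MYOZ2, a calsarcin of slow muscle that binds alpha-actinin and calcineurin. It had 2.73 ± 1.61 CPM in ST, 11.1 ± 5.71 CPM in LL, 33.4 ± 18.4 CPM in PM and 54.1 ± 14.1 CPM in SS, and its correlation was 0.763 with the chromosome 22 locus and 0.153 with the chromosome 2 locus. It was higher in PM than in LL (log2FC of LL minus PM -1.57, edgeR FDR = 0.00025). Over the 28 samples its correlation with the chromosome 22 locus fell to 0.534.

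Of 12 fast-fiber genes, 1 could be paired, the calcium-binding parvalbumin PVALB. Its level was 5.70 ± 2.59 CPM in ST, 5.65 ± 7.87 CPM in SS and 7.32 ± 5.41 CPM in RF, and at most 0.665 ± 0.364 CPM, the value in GB, in the other 6 muscles. It did not pass between ST and SS (log2FC of ST minus SS 0.46, edgeR FDR = 0.52) but passed the joint test of the 7 muscles (edgeR FDR = 6e-09), in which LL and PM both had 0.134 CPM, at or below the floor of 3 counts. Its correlations were -0.03 with the chromosome 22 locus and 0.158 with the chromosome 2 locus. None of the 7 genes of the PDZ and LIM domain family and 0 of the 4 alpha-actinins could be paired with a locus by symbol, the position of PDLIM1 on chromosome 2 apart. Of the markers listed for cell types, ACTA1, CKM, DES, MYLPF and TNNT3 of skeletal muscle and those of 6 other cell types, 0 could be paired, although muscle genes of the lists above could. Therefore the part of other cells in the profile of the chromosome 22 locus was not tested.

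The loci around both positions were compared between ST and SS. Of all loci, 2.29% were called in this pair, and among so few loci a count of 0 does not stand apart from that share. Within 500000 bases of the chromosome 2 locus, 12 of 28 loci were tested and 0 were called. Their edgeR FDR values went down to 0.098, for ENSOARG00000005764. The nearest tested locus before it, ENSOARG00000004999, ends 90712 bases away and had levels of 24.4 ± 2.73 CPM (ST) and 28.1 ± 4.32 CPM (SS) (log2FC of ST minus SS -0.20, edgeR FDR = 0.47). After it, 51620 bases away, 4 loci share 1 span, and the most expressed of them, ENSOARG00000005466, had levels of 55.9 ± 29.8 CPM (ST) and 49.0 ± 26.4 CPM (SS) (log2FC 0.13, edgeR FDR = 0.77). Their reads may be divided among overlapping genes in a way the counts do not show.

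Within the same distance of the chromosome 22 locus, 9 of 16 loci were tested and 2 were past the thresholds, beside the 2.29% of all loci, both higher in SS and both without an Ensembl gene. ST and SS had chosen the chromosome 22 locus, and loci so close to it may be part of the same transcripts, so their values in this pair are a description. The nearest, XLOC_017058, starts 3242 bases beyond the end of the chromosome 22 locus and spans 2176 bases (16023002 to 16025177). In ST the lambs had 2, 2, 3 and 0 counts, at most the floor of 3, and in SS 4, 22, 17 and 20. ST was lower in 4 of 4 lambs (0.367 ± 0.248 against 2.75 ± 1.28 CPM, log2FC -2.85). The other, XLOC_017061, named after its values were seen, had levels of 0.887 ± 0.757 CPM (ST) and 2.93 ± 0.754 CPM (SS) from 15 and 64 counts (log2FC -1.85).

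XLOC_017058, XLOC_017061 and the unannotated loci between them, 4 in all up to position 16035489, were each lower in ST than in SS in 4 of 4 lambs. The loci between them, XLOC_017059 and XLOC_017060, were not called, with 10 counts each in ST and 26 and 43 in SS. In lamb 3 XLOC_017059 had 3 counts in both muscles, so its direction there came from library size alone. The summed level of the 4 loci was 2.30 ± 0.781 CPM in ST, against 8.82 ± 1.65 CPM in SS. GM followed SS with 7.02 ± 0.746 CPM, then GB with 5.98 ± 1.60 CPM and PM with 5.33 ± 1.47 CPM. LL had 4.19 ± 2.23 CPM, above SM with 3.17 ± 1.48 CPM, and so was not among the lowest as in the chromosome 22 locus. The correlation of the sum with the chromosome 22 locus was 0.619 over the 36 samples but 0.254 over the 28 samples without ST and SS. The joint test of the 7 muscles was passed by none of the 4, with edgeR FDR values from 0.069 to 0.54. Whether these loci belong to the same transcription unit as ENSOARG00000005814 was not tested.

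Farther on, the next locus with an Ensembl gene, ENSOARG00000006055, starts 52754 bases from the chromosome 22 locus and shares its span of 233727 bases with XLOC_016582. Its level was 83.8 ± 15.6 CPM in ST, against 129 ± 6.67 CPM in SS, a log2FC of -0.67 (edgeR FDR = 0.024) that did not pass, and its correlation with the chromosome 22 locus was 0.304. The nearest tested locus before the chromosome 22 locus, ENSOARG00000004278, ends 503047 bases away and had levels of 3.16 ± 1.15 CPM (ST) and 3.44 ± 1.02 CPM (SS) (log2FC -0.07, edgeR FDR = 0.91).

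**Figure D4:**
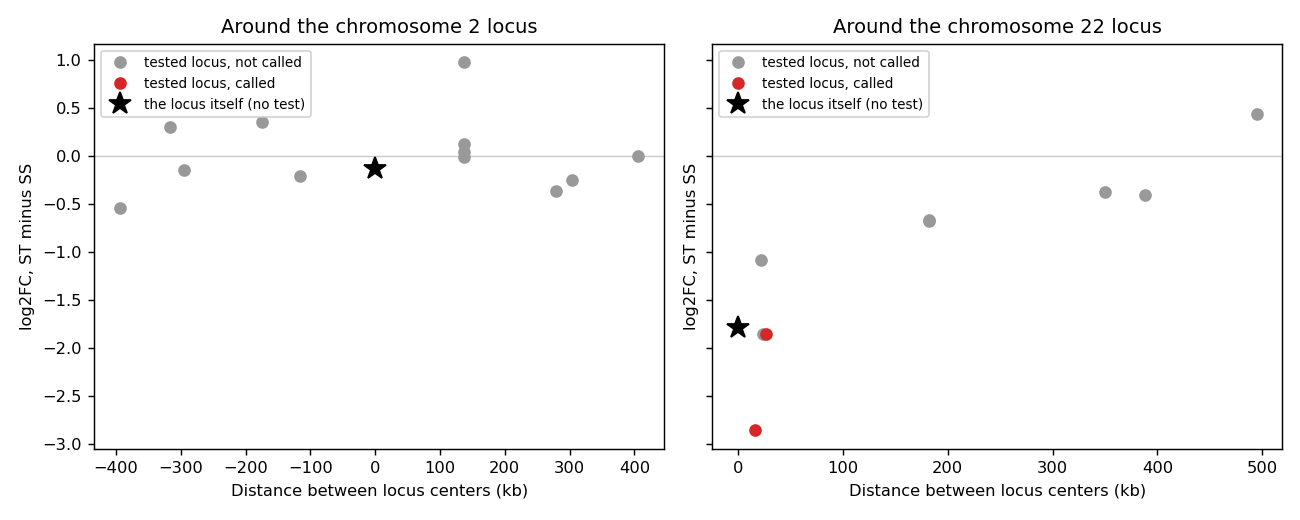
Fitted log2FC of ST minus SS (vertical axes) of tested loci within 500000 bases of the chromosome 2 locus (left) and the chromosome 22 locus (right), against the distance between locus centers in kilobases, with stars for the loci themselves and red points for loci called. Called loci appear on the right alone, where XLOC_017058 and XLOC_017061, at -2.85 and -1.85, lie close to the star at -1.78.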

How the data were processed

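RNA of 36 samples was sequenced with paired-end Illumina reads. The authors aligned the reads to Oar_v3.1 with TopHat2 2.0.13, assembled transcripts with Cufflinks 2.2.1 and counted reads per locus with HTSeq. The deposited values are whole-number counts without normalization, 31530 entries for 31136 loci, and each locus was used once. Start positions, which the files count from 0, were converted to count from 1. Strandedness of the counting is not given in the sources used here. Depth was 3699148 to 6427422 counts per sample, and without molecular identifiers intervals and floors cover counting error only.

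Computations used R 4.3.3 with edgeR 4.0.16 and limma 3.58.1. The filter on low counts was filterByExpr with muscle as group and kept 12461 loci, and normalization was by TMM. A model with muscle and animal, the terms used in the study, was fitted to all 36 samples and tested by quasi-likelihood, whereas the study used likelihood ratio tests. Calls required a Benjamini-Hochberg FDR of at most 0.01 over all loci and, in pairs of muscles, an absolute log2FC above 1. SE is that of the 4 within-lamb differences in log2 CPM with a prior count of 2, also used for correlations and variance shares. The model was tested on simulated data.

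Pairing came from the animal numbers in the labels. Deviations from muscle means correlated at 0.236 on average over 144 pairs of samples of the same lamb, and at -0.0777 between lambs. Samples of 1 muscle differed beyond counting noise in all 54 pairs (chi-square per degree of freedom 5.48 to 38.5).

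The members and gene lists were chosen with earlier results of these data known. Named are both loci, the 5 Ensembl loci most correlated with each, the nearest tested loci on each side and at most 6 genes of each list that could be paired, those with the smallest p between ST and SS. Symbols were paired with loci where the position tabulated by the study fell within a single tested locus. Alternatives were the likelihood ratio test, DESeq2 1.42.0, RLE size factors, TMM without the 4 largest loci, other filters and thresholds, fewer samples in the fit, no animal term and each lamb left out. Sequences were not used here.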

Additional observations from a re-analysis of the deposited data

How the results depend on the processing

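The log2FC of ST minus SS of the chromosome 22 locus stayed between -1.91 and -1.60 over 13 alternatives, and that of the chromosome 2 locus between -0.45 and 0.10 over 12, with a change of sign without lamb 1 (0.10) or lamb 3 (0.03). The chromosome 2 locus was called in 0 of 21 pairs and had joint FDR values from 0.86 to 0.99 under every alternative that kept it. Requiring 10 counts in every sample removed it.

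The joint FDR of the chromosome 22 locus, 0.00026, was 0.25 without LL and 0.0022 to 0.013 with each lamb left out. The number of loci called jointly, 449, was 800 with DESeq2, 1157 with the likelihood ratio test, 1313 at an FDR of 0.05, 1494 with no filter and 144 to 315 with each lamb left out. Without the replicate block of lambs it was 108. The pairs in which the chromosome 22 locus was called, 3 of 21, became 2 without the block, 2 with only the muscles under test in the fit and 1 to 5 with each lamb left out. Without the block the FDR of GM against LL was 0.016, so that this pair was lost, and removing the block changed no other call among the named pairs.

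The correlation between the loci, -0.093 over samples, was 0.236 over 9 muscle means. The permutation p of their difference among 7 muscles, 0.043, was 0.062 with a prior count of 0.5 and 0.026 to 0.36 with each lamb left out. Few counts limit the chromosome 2 locus, and the tests of 4 lambs limit small differences on chromosome 22.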

Other observations

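In each of the 18 combinations of locus and muscle, the gap of the most distant lamb stayed below the 95% critical value of Dixon's test for 4 samples, so no lamb stood apart in either locus.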
